A study of Mus musculus with 4 samples.

Results

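Histone tails carry methyl groups that bear on where DNA methylation (DNAme) is laid down as mouse oocytes grow. Methylation of H3 lysine 4 (H3K4) keeps the DNMT3A and DNMT3L proteins from binding the histone tail, and lysine-specific demethylases of the KDM1 and KDM5 families remove it. Methylation of H3 lysine 36 (H3K36), which is found over transcribed genes and is read by DNMT3A, is added by SETD2 and the NSD proteins. The 8 genes described here were chosen by name as the H3K4 demethylases Kdm1a, Kdm1b, Kdm5a, Kdm5b and Kdm5c and the H3K36 methyltransferases Setd2, Nsd1 and Whsc1 (the gene of NSD2). All 8 are among the 25587 genes with deposited values, and all 8 had at least 3 counts in each of the 4 libraries.

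RNA was sequenced from pooled oocytes of wild-type C57BL/6Babr mice, with 1 library for each of 4 stages. Non-growing oocytes (NGOs) came from mice of 5 days and measured 10 to 40 µm, and fully grown oocytes (FGOs) came from mice of 20 days and measured over 70 µm. Growing oocytes were taken as GO1 from mice of 8 to 14 days at 25 to 70 µm and as GO2 from mice of 15 days at 50 to 70 µm, so the sizes of these stages overlap. NGOs and FGOs were sequenced by a dUTP protocol, GO1 and GO2 with the ScriptSeq v2 kit. Changes are called only within a protocol, from NGOs to FGOs or from GO1 to GO2, because stage and protocol cannot be told apart in the other pairs. There was no replicate check of any difference, because each stage has 1 library. Values are RPKM, reads scaled to the exon length of a gene and to a library total, and intervals are exact Poisson 95 % intervals of counts recovered from them. Summed over genes, the recovered counts came to 61676686 for NGOs, 71897389 for GO1, 133076337 for GO2 and 69033486 for FGOs. Intervals cover counting error only, since without molecular identifiers several reads can stem from 1 molecule. These counts exceed the uniquely mapped reads listed for every library in the study's sample table, so the intervals are too narrow, by a factor that was not determined.

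The libraries carried the RNA of oocytes. All 12 oocyte markers were detected in every library, with a summed RPKM of 7319 for NGOs, 5101 for GO1, 4862 for GO2 and 5048 for FGOs, and Zp2, a zona pellucida gene, was the most abundant of them in each. The 9 granulosa cell markers added up to 6.23 RPKM for NGOs, 11.96 for GO1, 16.42 for GO2 and 18.96 for FGOs. Nr5a2 was the most abundant in each library, at 3.62 RPKM in NGOs and 9.57 in GO1. The median of the 9 was 0.397 RPKM for NGOs, 0.167 for GO1, 0.171 for GO2 and 0.412 for FGOs. Foxl2, Amh, Amhr2, Inha and Inhba were lower in GO1 than in NGOs. No granulosa cell marker was at 0, and 8 of them reached 3 counts in GO1 and all 9 in the other libraries. From NGOs to FGOs, Cyp19a1, Kitl, Inha, Nr5a2 and Fshr were higher past 2-fold, with a log2 change of 3.60 for Cyp19a1, while Foxl2 was lower, at 0.075 RPKM in NGOs and 0.027 in FGOs. The intervals of Fshr (0.59 to 1.87), Inha (lower end just under 2-fold) and Foxl2 (-2.84 to -0.22) reached inside 2-fold. The 7 theca and stroma markers added up to 3.88 RPKM for NGOs, 0.298 for GO1, 0.461 for GO2 and 0.356 for FGOs, so the sum was highest in NGOs. Star, at 0.097 RPKM in NGOs, was higher in every other library, and Cyp17a1, at 0.008 in NGOs, was higher in GO1 and GO2. Of the 7 markers, 5 reached 3 counts in FGOs and 6 in each other library. The collagen gene Col1a1 was the most abundant of these in NGOs at 2.24 RPKM and was at 0.0191 RPKM in FGOs, and Lum was at 0 in GO1, GO2 and FGOs. Star was the most abundant in GO1 and GO2 and Pdgfra in FGOs, where Cyp17a1 was also at 0. The 7 blood, immune and endothelial markers added up to 3.62 RPKM for NGOs, 5.72 for GO1, 8.95 for GO2 and 10.15 for FGOs, with Pecam1 the most abundant in each, at 1.74 RPKM in NGOs and 9.70 in FGOs. Of the other 6, only Kdr was higher in FGOs than in NGOs. Of these 7, at least 6 reached 3 counts in NGOs, where the count of Hbb-b1 is uncertain, 3 did in GO1, and 4 did in each of the other libraries. The globin gene Hba-a1 had 0.902 RPKM in NGOs and was at 0 in GO1 and FGOs, Hbb-b1 was at 0 in GO1, GO2 and FGOs, and Cdh5 was at 0 in GO2 and FGOs. RPKM is a share of a library, so fewer cells of a type and less RNA per cell cannot be told apart.

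Kdm1b, which encodes the demethylase LSD2 of H3K4 mono- and dimethylation, was the most abundant of the 8 genes at every stage. It lies on the plus strand of chromosome 13 from 47043499 to 47084613 (GRCm38). Its RPKM was 231.5 for NGOs (interval 230.2 to 232.8), 197.4 for GO1 (196.3 to 198.5), 155.7 for GO2 (155.0 to 156.4) and 98.96 for FGOs (98.15 to 99.78). In RPKM as deposited, the level was thus highest in NGOs and lowest in FGOs, and no interval overlapped another. NGOs and GO1 differ in protocol, and the gap between them depended on the scale. Its log2 change was -0.04 on the scale used for changes and -0.25 with library totals. In GO2 it was higher than 99.6 % of all listed genes. Its paralog Kdm1a, the gene of LSD1, had an RPKM of 12.28 for NGOs, 8.15 for GO1, 9.57 for GO2 and 9.15 for FGOs. Kdm1a was highest in NGOs, followed by GO2, FGOs and GO1, and the intervals of GO2 (9.40 to 9.74) and FGOs (8.91 to 9.39) nearly touched. The RPKM of Kdm1b was 18.9 times that of Kdm1a for NGOs, 24.2 times for GO1, 16.3 times for GO2 and 10.8 times for FGOs. Of the summed RPKM of the 5 H3K4 demethylase genes, Kdm1b made up 88.0 % for NGOs, 90.6 % for GO1, 88.3 % for GO2 and 83.3 % for FGOs.

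The KDM5 proteins remove tri- and dimethylation of H3K4, and their genes had lower levels than Kdm1b. Kdm5c, on the X chromosome from 152233020 to 152274535, had an RPKM of 11.40 for NGOs, 8.36 for GO1, 8.45 for GO2 and 8.49 for FGOs. It was highest in NGOs, and the intervals of GO1 (8.17 to 8.55), GO2 (8.32 to 8.59) and FGOs (8.30 to 8.69) overlapped in RPKM as deposited. The order of these 3 depended on the scale. As TPM, the RPKM divided by its sum over genes, the levels were 47.94 for GO1, 50.04 for GO2 and 45.25 for FGOs. Kdm5a, on chromosome 6 from 120364099 to 120444574, had an RPKM of 4.45 for NGOs (4.35 to 4.56), 3.30 for GO1 (3.22 to 3.39), 2.11 for GO2 (2.06 to 2.16) and 1.67 for FGOs (1.61 to 1.74). In RPKM as deposited, its levels had the same order as those of Kdm1b, with no overlap of intervals. Kdm5b, on chromosome 1 from 134560171 to 134632877, had an RPKM of 3.34 for NGOs (3.22 to 3.47), 0.644 for GO1 (0.595 to 0.697), 0.471 for GO2 (0.440 to 0.503) and 0.461 for FGOs (0.418 to 0.507). Kdm5b was the lowest of the 8 genes in every library, stood highest in NGOs and had overlapping intervals in GO2 and FGOs, which differ in protocol. The share of Kdm5c in the summed RPKM of the 3 KDM5 genes was 59.4 % in NGOs and 79.9 % in FGOs.

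SETD2 is the enzyme that trimethylates H3K36. Setd2, on chromosome 9 from 110532597 to 110618633, had an RPKM of 8.92 for NGOs (8.75 to 9.09), 26.84 for GO1 (26.56 to 27.12), 23.06 for GO2 (22.87 to 23.24) and 11.0 for FGOs (10.81 to 11.18). The 2 ScriptSeq libraries were thus high and the 2 dUTP libraries low. Nsd1 and Whsc1 encode enzymes that add mono- and dimethylation to H3K36. Nsd1, on chromosome 13 from 55209782 to 55318325, had an RPKM of 7.82 for NGOs, 10.03 for GO1, 10.61 for GO2 and 10.98 for FGOs, lowest in NGOs. Its order among the other libraries depended on the scale. RPKM as deposited was highest in FGOs, and TPM was highest in GO2 (62.8, against 58.5 in FGOs). Whsc1, on chromosome 5 from 33820725 to 33897975, had an RPKM of 6.38 for NGOs, 6.81 for GO1, 5.88 for GO2 and 4.63 for FGOs, highest in GO1 and lowest in FGOs. Of the summed RPKM of these 3 genes, Setd2 made up 38.6 % for NGOs, 61.4 % for GO1, 58.3 % for GO2 and 41.3 % for FGOs. The median RPKM of the 8 genes in GO2 was 9.01, and their median percentile among all listed genes in GO2 was 85.6.

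**Figure D1:**
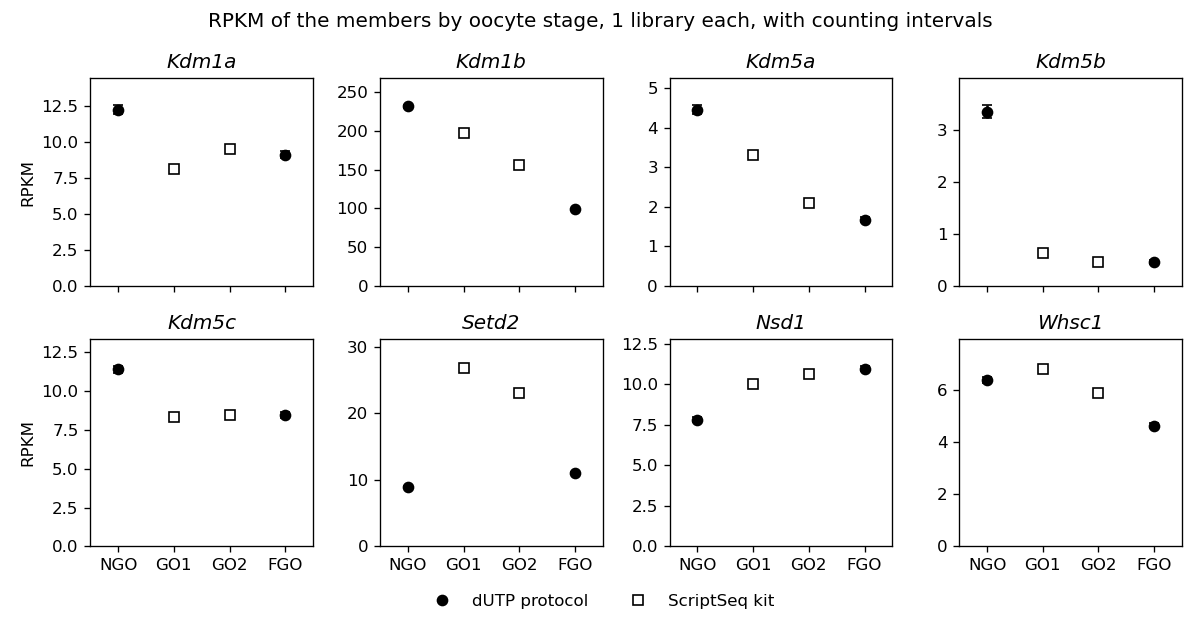
RPKM (vertical axis, from 0, with its own scale for each gene) of the 8 genes in NGOs, GO1, GO2 and FGOs (horizontal axis), with filled circles for dUTP and open squares for ScriptSeq libraries, and bars for Poisson 95 % intervals. Kdm1b goes from 231.5 in NGOs to 98.96 in FGOs, and Setd2 is at 26.84 in GO1 and 23.06 in GO2 against 8.92 in NGOs and 11.0 in FGOs.

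From NGOs to FGOs, 3 of the 8 genes were lower past 2-fold, where 16.9 % of the 15300 genes tested (at least 20 counts in the pair) were, and 0 of the 8 were higher past 2-fold, where 17.7 % were. With RPKM as deposited and a pseudocount of 0.1, 12.7 % of the genes were lower and 13.0 % higher, and the same 3 of the 8 passed. The 3 genes were all H3K4 demethylases. These changes are relative to the other RNA of a library, so a lower value need not mean fewer transcripts per oocyte. Transcripts per oocyte were not measured in either pair. The log2 change of Kdm5b was -2.80 (interval -2.96 to -2.66), and 2.71 % of the tested genes had a lower value. That of Kdm5a was -1.36 (-1.42 to -1.30), and that of Kdm1b was -1.17 (-1.19 to -1.16). The other 5 genes kept within 2-fold, with log2 changes of -0.37 for Kdm1a, -0.37 for Kdm5c, -0.41 for Whsc1, 0.35 for Setd2 and 0.54 for Nsd1. The median log2 change over the 8 genes was -0.39, and over all genes tested it was -0.01. Markers moved in the same pair. Of the 12 oocyte markers, 4 were lower past 2-fold in FGOs (Zp2, Zp3, Ddx4 and Figla) and 2 higher (Bmp15 and Oosp1), with a median log2 change of -0.70, so a lower value was not particular to the 8 genes. Of the 5 theca and stroma markers tested, 3 were lower past 2-fold in FGOs and 0 higher, and of the 9 granulosa cell markers 5 were higher and 1 lower, 3 of these with intervals that reached inside 2-fold. Of the 5 blood, immune and endothelial markers tested, 2 were higher (Pecam1 and Kdr) and 1 lower (Hba-a1). The part of other cells in these changes was not tested.

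From GO1 to GO2, 0 of the 8 genes passed 2-fold in either direction, where 7.05 % of the 15806 genes tested were higher past 2-fold and 2.80 % were lower past 2-fold. With RPKM as deposited, these shares were 2.52 % and 0.728 %, and still 0 of the 8 passed. Kdm5a had the lowest log2 change of the 8, at -0.67 (-0.72 to -0.62), and 7.07 % of the tested genes had a lower value. The values of Kdm5b and Kdm1b were -0.48 (-0.63 to -0.33) and -0.37 (-0.38 to -0.36). The 3 genes that were lower past 2-fold from NGOs to FGOs thus had the 3 lowest values from GO1 to GO2. The log2 change was -0.24 for Setd2, -0.24 for Whsc1, 0.06 for Nsd1 and 0.21 for Kdm1a, and that of Kdm5c, at -0.01, had an interval that included 0 and a sign that turned under other scalings. The median over the 8 genes was -0.24, and over all genes tested it was 0.03. None of the 12 oocyte markers passed 2-fold in this pair (median -0.17). Among markers of other cells, Cyp19a1, Kdr and Pdgfra were higher past 2-fold and Col1a2 was lower, with intervals of Pdgfra (0.68 to 1.43) and Col1a2 (-2.49 to -0.56) that reached inside 2-fold, and their part in this pair was not tested either.

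**Figure D2:**
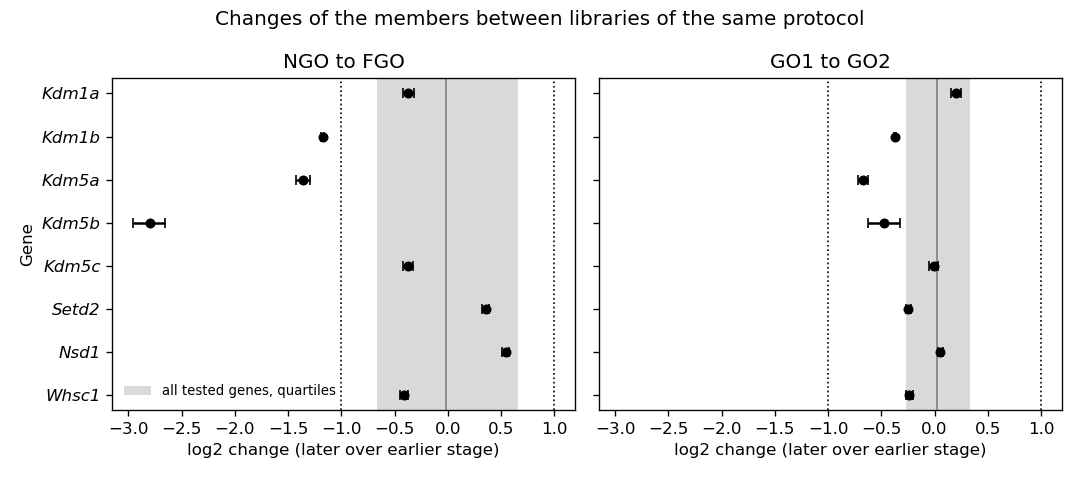
Log2 change (horizontal axis, positive where the later stage is higher) of each of the 8 genes (vertical axis), in a panel for NGOs to FGOs and a panel for GO1 to GO2, with bars for counting intervals, dotted lines at 2-fold, a gray band for the quartiles of all tested genes and a gray line for their median. Kdm5b, Kdm5a and Kdm1b lie beyond the dotted line in the first panel, at -2.80, -1.36 and -1.17, and no gene does in the second.

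Across the protocols the values are given side by side with no call. From NGOs to GO1 the log2 change was 1.78 for Setd2, 0.55 for Nsd1, 0.28 for Whsc1, -0.04 for Kdm1b, -0.24 for Kdm5a, -0.26 for Kdm5c, -0.40 for Kdm1a and -2.19 for Kdm5b. These values depend on the scale. The alternative of library totals uses the recovered counts summed over genes, not the fitted totals behind RPKM. With library totals the values were 1.57 for Setd2, 0.34 for Nsd1, 0.07 for Whsc1 and -0.25 for Kdm1b. For Kdm5a, Kdm5c, Kdm1a and Kdm5b they were -0.46, -0.47, -0.61 and -2.40. From GO2 to FGOs the log2 change was -1.18 for Setd2, -0.06 for Nsd1, -0.45 for Whsc1 and -0.76 for Kdm1b. It was -0.44 for Kdm5a, -0.10 for Kdm5c (interval -0.14 to -0.06), -0.17 for Kdm1a and -0.14 for Kdm5b (-0.31 to 0.03, which includes 0). With RPKM as deposited, the values were -1.06 for Setd2, 0.05 for Nsd1, -0.34 for Whsc1 and -0.65 for Kdm1b. For Kdm5a, Kdm5c, Kdm1a and Kdm5b they were -0.32, 0.01, -0.07 and -0.03. Setd2 had the highest value of the 8 in the first of these pairs and the lowest in the second.

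Overlap with genes on the other strand limits 4 of the 8. The study describes its libraries as strand-specific, but the strand setting of the deposited values is not given in the sources used here. Shared bases were counted over gene spans, introns included. Kdm1a shares 4241 bases with Luzp1, Kdm1b 1239 bases with Tpmt, Kdm5a 276 bases with Ccdc77, and Whsc1 1040 bases with Whsc2. Reads from the shared bases are uncertain, and how many of these bases are exonic was not determined. Luzp1 had an RPKM of 9.52 for NGOs, 17.74 for GO1, 19.71 for GO2 and 18.92 for FGOs, above Kdm1a in all but NGOs. Whsc2 had 15.42 for NGOs, 9.95 for GO1, 10.19 for GO2 and 12.99 for FGOs, above Whsc1 in each library. Ccdc77 had 1.30 for NGOs, 2.34 for GO1, 2.97 for GO2 and 1.27 for FGOs, above Kdm5a in GO2. Tpmt, with 13.96 for NGOs, 16.87 for GO1, 13.27 for GO2 and 11.18 for FGOs, was below Kdm1b in each. How many reads they share was not tested.

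Other enzymes that set or remove these marks were compared. Whsc1l1, the gene of NSD3, had an RPKM of 0.631 for NGOs, 1.05 for GO1, 0.863 for GO2 and 0.720 for FGOs, and Ash1l, an H3K36 methyltransferase gene, had 2.21, 4.32, 3.60 and 2.43. Both kept within 2-fold in the pairs of one protocol. Kdm5d was searched for as well, and none of the genes with deposited values was matched to it. Of 6 genes of H3K4 methyltransferases, 1 was lower and 0 were higher past 2-fold from NGOs to FGOs (median log2 change 0.26), and 2 were lower and 0 higher from GO1 to GO2 (median -0.69). Mll1, the gene of KMT2A, had a log2 change of -3.47 (-4.29 to -2.85) from NGOs to FGOs, and one of -1.73 from GO1 to GO2, at levels of at most 0.114 RPKM. The row listed as Mll2, matched to Kmt2d by its coordinates, had -1.54 from GO1 to GO2. None of 10 subunits of H3K4 methyltransferase complexes passed 2-fold in either pair (medians 0.06 and 0.02), from Wdr5 at 49.75 RPKM in GO2 to Hcfc1 at 4.37. Of 6 H3K36 demethylase genes, Kdm2b was higher past 2-fold from NGOs to FGOs at 1.36, Kdm4c was lower at -1.55, and 0 passed 2-fold from GO1 to GO2 (medians -0.17 and 0.22).

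Of 12 genes of LSD1 and LSD2 partner proteins, 1 was higher and 1 lower past 2-fold from NGOs to FGOs (median -0.07), and 0 passed from GO1 to GO2 (median -0.11). Hdac1, a histone deacetylase gene, had 0.682 RPKM for NGOs, 1.42 for GO1, 0.956 for GO2 and 0.153 for FGOs, with a log2 change of -2.09 from NGOs to FGOs, and that of Gse1 was 1.16. Glyr1, whose protein binds LSD2, was the most abundant of these genes in each library, with 28.27 RPKM in NGOs and 33.77 in FGOs. Among 9 genes of transcription elongation, Polr2a, the largest subunit of RNA polymerase II, was lower past 2-fold from NGOs to FGOs at -1.10 (-1.22 to -0.98, an interval that reached inside 2-fold), the other 8 kept within 2-fold (median of the 9 -0.26), and 0 passed from GO1 to GO2 (median -0.15). Of the 3 genes of the de novo DNAme machinery, Dnmt3l had 3.25 RPKM for NGOs, 8.47 for GO1, 14.46 for GO2 and 28.30 for FGOs, and was higher past 2-fold from NGOs to FGOs at 3.17 (3.08 to 3.27). Dnmt3a and Dnmt3b kept within 2-fold in both pairs (medians of the 3 genes 0.43 and 0.40), and Dnmt3a had 5.22 RPKM in NGOs and 6.00 in FGOs.

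The genes most like each of the 8 were sought among 10745 other genes that reached 100 counts in each library, as the 3 with the smallest Euclidean distance between centred profiles of log2(RPKM + 0.1) over the 4 libraries. For Kdm1b they included Lpin1 and Uchl3, at distances of 0.065 and 0.067. Uchl3 had an RPKM of 72.91 for NGOs, 65.48 for GO1, 51.36 for GO2 and 33.06 for FGOs. For Kdm1a they were Acsl1, Evc and D6Wsu163e, for Kdm5a Alg13, AC111044.1 and Scamp1, for Kdm5b Lpcat3, Piwil2 and Vrk3, and for Kdm5c Pdzrn3, Cables2 and 5530601H04Rik. For Setd2 they were Gng12, Runx1t1 and Gm12588, for Nsd1 Dnajc1, Nptn and 2410042D21Rik, and for Whsc1 Nars, Oxa1l and Cdkal1. Kdm5b had the loosest matches, at distances of 0.18 to 0.22. Gng12, the nearest to Setd2, had an RPKM of 7.02 for NGOs, 20.23 for GO1, 17.96 for GO2 and 9.14 for FGOs, high in the same libraries as Setd2.

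RefSeq promoter sequences (GRCm38.p6) were matched for 5 of the 8 genes, and Kdm5a, Nsd1 and Whsc1 had no entry. The 250 bases before the RefSeq start of Kdm1b and Kdm5b are printed because these genes were lower past 2-fold from NGOs to FGOs. They lie at chr13:47043249-47043498 and chr1:134559928-134560177, both on the plus strand. The E-box CANNTG, which reads the same on both strands, was searched and is in capitals, and 66.2 % of 32851 promoters hold it in this window.
Kdm1b: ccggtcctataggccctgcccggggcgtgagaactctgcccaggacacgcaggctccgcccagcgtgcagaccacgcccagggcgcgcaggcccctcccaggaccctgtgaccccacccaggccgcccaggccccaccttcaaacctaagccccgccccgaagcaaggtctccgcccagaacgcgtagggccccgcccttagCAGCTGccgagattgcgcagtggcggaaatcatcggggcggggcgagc
Kdm5b: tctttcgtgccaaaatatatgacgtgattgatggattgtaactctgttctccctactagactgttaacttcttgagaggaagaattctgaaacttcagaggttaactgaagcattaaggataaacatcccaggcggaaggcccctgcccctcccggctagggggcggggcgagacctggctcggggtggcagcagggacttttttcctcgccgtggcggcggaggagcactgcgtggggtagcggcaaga
The motif was found 1 time before Kdm1b and 0 times before Kdm5b. Kdm1b had 22 CpG sites in the window, more than 85.2 % of promoters, and Kdm5b had 13, against a median of 6 over all promoters. The 3 matched genes that were not lower past 2-fold had 31 (Setd2), 21 (Kdm1a) and 10 (Kdm5c), with 0, 0 and 1 E-box, so neither count sets the lower genes apart.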

How the data were processed

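The authors trimmed reads with Trim Galore 0.2.8, mapped them to GRCm38 with TopHat2 2.0.9 and deposited RPKM values, with program, annotation and strand setting not given in the sources used here. Library totals were fitted so that RPKM times GENCODE M21 length of 1-exon genes was whole (within 0.005 plus 1.2e-07 of the count, for 99.4 to 99.7 % of values), and each other gene but Zp1, for which no length fit and the GENCODE exon union was used, took an exon length that made its counts whole. Where the highest count was under 10 and GENCODE had the gene (Hbb-b1 had no match by name), the fitting length nearest to the GENCODE exon union was taken, a choice made after the values were seen. To compute log2 changes, libraries were put on one scale with the trimmed mean of their log ratios (30 % of ratios and 5 % of mean expression trimmed at each end) and a prior count of 1 was added. Alternatives are given at the end. The steps were tested on simulated data with scipy 1.17.1, numpy 2.4.6, pandas 2.3.3 and matplotlib 3.10.9 under Python 3.11.15. The simulated counts held Poisson error only, without repeated reads or a difference of protocol. They therefore cannot show how far either bears on the changes called here.

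The members and lists were chosen with earlier results of these data known. Genes named are the 8 members, all other H3K4 demethylase and H3K36 methyltransferase genes listed, of each other list those past 2-fold in a pair of one protocol (all if 4 or fewer, else the 2 largest each way, and with none the highest and lowest in GO2), and the 3 genes most like each member, of which 1 is not reported here. Values of Glyr1, Dnmt3a, overlapping genes and single markers were chosen after they were seen.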

Additional observations from a re-analysis of the deposited data

How the results depend on the processing

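From NGOs to FGOs, 3 genes passed 2-fold under library totals, median-of-ratios scaling, RPKM as deposited, a prior count of 5, no count minimum and a minimum of 100 counts, and at 1.5-fold. At 4-fold 1 gene (Kdm5b) passed. From GO1 to GO2, 0 genes passed under the same scalings, prior and minimums and at 4-fold, and 1 (Kdm5a) passed at 1.5-fold. Taking the smallest fitting exon length also for genes with few counts, an alternative chosen after seeing the data, left the numbers at 3 and 0. Library totals in this section are the recovered counts summed over genes, not the fitted totals behind RPKM. Scaling by them moved the median log2 change of all genes from NGOs to FGOs by -0.10 and from NGOs to GO1 by -0.21. RPKM as deposited moved the median from NGOs to GO1 by -0.15. Under the 4 other scalings and priors, 32 of 32 log2 changes kept their sign from NGOs to FGOs and 30 of 32 from GO1 to GO2, where Kdm5c turned to 0.06 with library totals and 0.02 with RPKM as deposited. From GO2 to FGOs 30 of 32 did, and RPKM as deposited gave 0.01 for Kdm5c and 0.05 for Nsd1. The median level of the 8 genes in GO2 was 53.3 as TPM, by the change of unit. Dividing RPKM by the factors of the trimmed mean of log ratios gave 9.20. Those factors belong to counts summed over genes, so this level is not on the scale of the log2 changes. The median percentile of the 8 genes in GO2 was 79.8 among genes with at least 3 counts, since fewer genes were compared. With Pearson correlation in place of distance, 1 of the 24 most similar genes was shared, so the named genes depend on the measure. With 1 library per stage, no depth stands in for the spread between animals.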
